A study of Saccharomyces cerevisiae with 6 samples.

Results

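The transcripts of the canonical prefoldin and of the R2TP complex were followed in budding yeast, Saccharomyces cerevisiae, with and without BUD27 and with and without rapamycin. The members were chosen by name: the 6 prefoldin genes PFD1 (YJL179W), GIM3 (YNL153C), GIM4 (YEL003W), GIM5 (YML094W), PAC10 (YGR078C) and YKE2 (YLR200W), and the 4 R2TP genes RVB1 (YDR190C), RVB2 (YPL235W), TAH1 (YCR060W) and PIH1 (YHR034C), which makes 10 genes among 5475 gene rows. Prefoldin is a cytosolic holdase with jellyfish-like tentacles that takes up newly made actin and tubulin chains and hands them to the CCT chaperonin. Its subunits are of an alpha type (Pac10 and Gim5) and a beta type (Pfd1, Gim3, Gim4 and Yke2). R2TP joins a ring of the AAA+ ATPases Rvb1 and Rvb2 to the adaptors Tah1 and Pih1, works with Hsp90, and helps to assemble box C/D small nucleolar ribonucleoproteins, RNA polymerases and kinases of the TOR family. Bud27 is a prefoldin-like protein, outside the canonical hexamer, with a role in the assembly of RNA polymerases, and rapamycin inhibits the kinase complex TORC1.

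All 6 libraries are labelled as the BY4741 background, a haploid strain of mating type a used in many laboratories, grown in YPD, a rich glucose medium, at 30 °C to an OD600 near 0.8. There were 2 libraries of untreated WT, 2 of the bud27∆ mutant and 2 of WT kept overnight in medium with rapamycin at 50 ng/ml. The number of mutant clones and whether libraries of a group came from separate cultures are not given, so the spread that the p-values rest on is that between libraries and may be technical only. Only polyadenylated 3′ ends were sequenced, so a level counts reads per transcript and was not divided by gene length, and a level or a ratio between genes is compared here only across libraries. Levels are CPM (each gene's reads scaled to a common library total) rescaled by TMM factors, which align the bulk of the genes between libraries. Log2 fold changes were taken after adding 1 to the scaled CPM and carry their standard error (SE), and a gene was called at a limma adjusted p below 0.05 over 5279 gene rows.

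The WT and rapamycin libraries rested on 18153459 to 28774941 reads and the deletion libraries on 3212848 and 5088194, so the deletion values carry the larger counting error. BUD27 itself kept 6 and 9 reads in the deletion libraries (1.66 and 1.75 scaled CPM), where WT had 268 and 246 (13.0 and 16.8 scaled CPM). Its log2 fold change was -2.54 (SE 0.18, limma adjusted p = 4.9e-05). Its convergent neighbour FRS2 also stood at -2.17 (SE 0.25, limma adjusted p = 0.00044). The a-specific markers summed to between 1137 and 3983 scaled CPM and the alpha-specific ones to between 8.38 and 30.0. The deletion libraries held 5 and 8 reads of TRP1 (1.39 and 1.56 scaled CPM), a gene that BY4741 carries. The other libraries held 626 to 1320 (32.5 to 42.9 scaled CPM). Of LEU2, which BY4741 lacks, the deletion libraries held 19 and 22 reads, against 1 to 14 in the others. MET17, which BY4741 also lacks, had 31 and 80 reads in untreated WT, 2 and 3 in the deletion and 0 and 0 with rapamycin (rapamycin against WT -2.01, limma adjusted p = 0.0044). URA3, also listed as lacking in BY4741, had 10 to 70 reads in each library. The HIS3 row is joined with another feature, so its reads cannot be assigned to HIS3 and do not tell the strain. That row stood at 2.53 in the deletion and 1.43 with rapamycin (SE 0.19 for both, limma adjusted p = 5.6e-05 and 0.00064). Given the TRP1 and LEU2 reads, differences between deletion and WT cannot be told apart from other differences between the strains. Whether the untreated and rapamycin libraries also differ in strain was not tested. In a culture measured in bulk, a changed level in every cell and a changed share of cells cannot be told apart either.

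The question of the first comparison was which transcripts differ in the bud27∆ mutant. GIM4 and GIM5 rose by just under 1 log2 unit, TAH1 by a like amount and YKE2 by less, while RVB2 fell. In all, 4 of the 10 members were higher and 1 was lower, against a background of 47.2% of all gene rows called, 21.7% higher and 25.5% lower, so the share of members called lay near the background. The groups did not overlap for 7 members, as for 73.5% of all rows. In the deposited CPM 5 members were higher and none lower, as 76.1% of all calls were then higher in place of 46.0%. The count of members called fell from 5 to 2 without WT replicate 2, and to 3 without WT replicate 1, rapamycin replicate 1 or rapamycin replicate 2. By complex, 3 of 6 prefoldin genes were higher and none lower, and of the 4 R2TP genes 1 was higher and 1 lower. The median log2 fold change was 0.27 over the prefoldin genes and -0.24 over the R2TP genes, beside -0.02 over all rows. Without the joined GIM3 row, described further on, the prefoldin median was 0.41. On the deposited CPM scale the 3 medians were 0.69, 0.17 and 0.38, so the sign of the R2TP median depends on the scaling.

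The second comparison asked what rapamycin changes in WT. Here RVB2, PAC10, RVB1 and GIM5 fell and TAH1 rose. The members thus had 4 lower and 1 higher, against 45.9% of all rows called, 21.5% lower and 24.4% higher. For 8 members the groups did not overlap, where 80.4% of all rows had no overlap. In the deposited CPM 2 members were higher (YKE2 and TAH1) and 1 lower (RVB2), as 87.0% of all calls were then higher in place of 53.1%. Leaving out any WT or rapamycin library brought the count of members called from 5 to 3. The median log2 fold change was -0.37 over prefoldin and -0.40 over R2TP, against 0.05 over all rows. On the deposited scale both member medians turned positive, 0.22 and 0.17, and the median of all rows moved to 0.60. A change of scale moves all rows by a like amount, so the place of both complexes below the bulk is no separate check. The comparison shares its WT libraries with the first one.

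Set directly against rapamycin, the bud27∆ mutant had 7 of the 10 members higher and none lower, 5 of the 6 prefoldin genes among them, where 55.1% of all rows were called, 25.6% higher and 29.4% lower. For 8 members the groups did not overlap, against 78.6% of all rows. The share of all calls that were higher was 46.6%, and 33.9% in the deposited CPM. The median log2 fold change was 0.48 over prefoldin and 0.17 over R2TP, against -0.01 over all rows. GIM4 stood 1.03 above rapamycin (SE 0.18, limma adjusted p = 0.0021) and GIM5 1.32 above it (SE 0.13, limma adjusted p = 0.00012), and both were called in all 15 other settings. PAC10 and YKE2 lay 0.43 above it each (SE 0.13 and 0.14, limma adjusted p = 0.023 and 0.027). Only GIM4, GIM5 and RVB2 kept their calls in the deposited CPM, where the median of all rows lay at -0.17. Without rapamycin replicate 1, or without rapamycin replicate 2, 3 members were called.

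**Figure D1:**
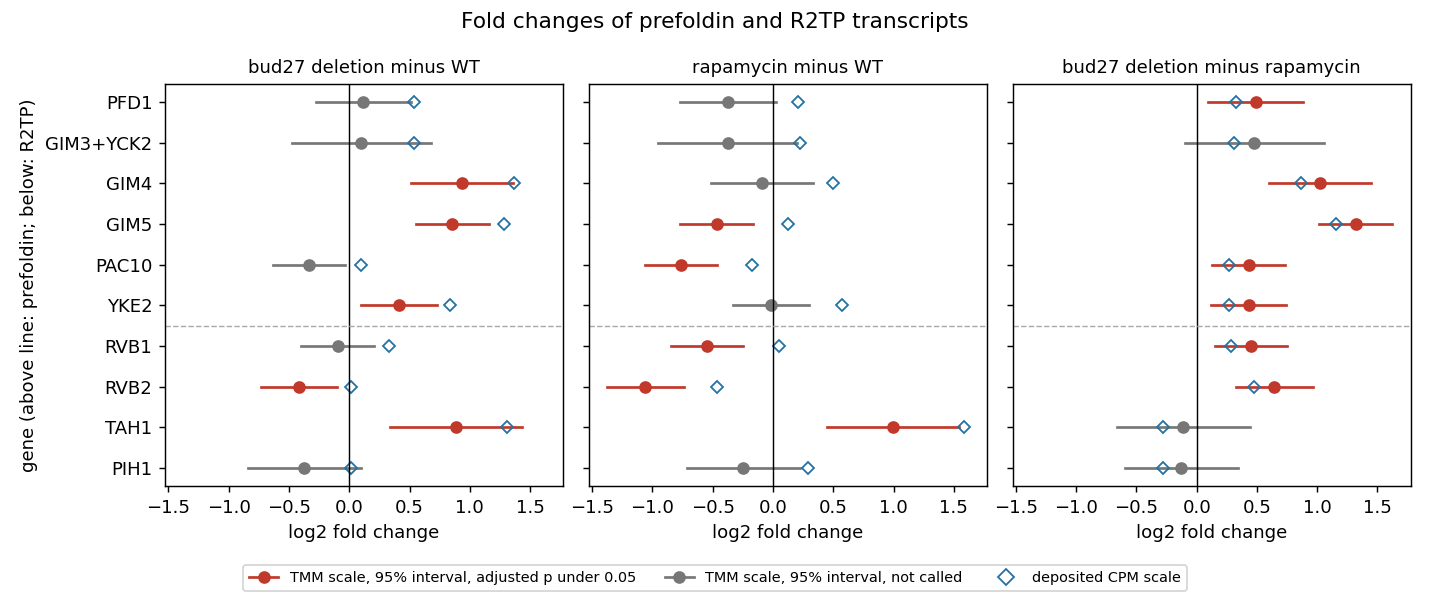
Log2 fold changes of the 10 members (rows) in the 3 comparisons (panels); filled points with lines are the TMM scale with 95% intervals, red where called, and open diamonds the deposited CPM scale. GIM4, GIM5 and TAH1 lie right of 0 on both scales in the deletion, RVB2 lies left of 0 on both after rapamycin, and the diamonds lie to the right of the points in the first and second panel.

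Of the alpha-type prefoldin subunits, GIM5 rose in the deletion and fell with rapamycin. It lies at chrXIII:82275-82849 on the plus strand of build R64. Its scaled CPM were 39.3 and 37.8 in WT, 74.6 and 66.6 in bud27∆ and 27.2 and 28.1 with rapamycin. The 3 groups did not overlap, with the deletion highest and rapamycin lowest. Against WT the log2 fold change was 0.85 in the deletion (SE 0.13, limma adjusted p = 0.0016) and -0.47 with rapamycin (SE 0.13, limma adjusted p = 0.021). The rise was called under each of the 15 other settings of the analysis, with log2 fold changes from 0.79 to 1.28. The fall with rapamycin was lost on the deposited scale, where the value was 0.12, and without WT replicate 1, WT replicate 2, rapamycin replicate 1 or rapamycin replicate 2 (adjusted p from 0.073 to 0.18). UTP14, which begins 240 bases beyond GIM5 on the same strand, had log2 fold changes of 0.57 in the deletion and -1.47 with rapamycin (limma adjusted p = 0.010 and 0.00012), and its part in the GIM5 values was not tested.

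PAC10, the other alpha-type subunit (chrVII:639772-640371, minus strand), had 41.0 and 41.4 scaled CPM in WT, 32.7 and 32.3 in bud27∆ and 23.1 and 24.6 with rapamycin. Its order of levels differs from that of GIM5: WT was highest, the deletion lay between and rapamycin was lowest, with no overlap of the groups. Of the steps from WT only that to rapamycin passed the test, at -0.76 (SE 0.13, limma adjusted p = 0.0021). The deletion stood at -0.33 against WT (SE 0.13, limma adjusted p = 0.066). With the deposited CPM the rapamycin value was -0.17 (adjusted p = 0.32), and that was the only 1 of the 15 other settings in which the call was lost.

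Among the beta-type subunits GIM4 (chrV:148176-148599, plus strand) changed most in the deletion. It had 38.1 and 53.5 scaled CPM in WT, 95.2 and 80.1 in bud27∆ and 40.9 and 43.8 with rapamycin. The deletion libraries lay above all others, and the rapamycin values fell inside the range of WT. The log2 fold change was 0.94 in the deletion (SE 0.18, limma adjusted p = 0.0046) and -0.09 with rapamycin (SE 0.18, limma adjusted p = 0.72, 95% interval -0.51 to 0.33). The rise in the deletion was called in all 15 other settings. WBP1, which converges on GIM4 with 122 bases between the genes, went the other way in the deletion (-0.85, SE 0.13, limma adjusted p = 0.0018). YEA4, which ends 196 bases before GIM4 on the same strand, was higher in the deletion (1.30, SE 0.20, limma adjusted p = 0.0016) and with rapamycin (0.86, SE 0.20, limma adjusted p = 0.0091). The part of either neighbour in the GIM4 values was not tested.

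YKE2 (chrXII:549012-549356, plus strand) had 36.9 and 32.5 scaled CPM in WT, 47.4 and 45.6 in bud27∆ and 33.2 and 35.3 with rapamycin. The deletion libraries lay above the other 4. Its rise in the deletion was smaller, 0.41 (SE 0.14, limma adjusted p = 0.036), and it was called in 8 of the 15 other settings. The call was lost without WT replicate 1 (0.50), WT replicate 2 (0.32), rapamycin replicate 1 (0.45) or rapamycin replicate 2 (0.45). It was also lost with DESeq2 (adjusted p = 0.056). The same held in limma with replicate number as a block (adjusted p = 0.054) and with only the 2 groups compared (adjusted p = 0.066). In this comparison the rapamycin libraries enter only through the scaling, the row filter and the estimate of the spread. In deposited CPM YKE2 stood at 0.84 in the deletion and 0.57 with rapamycin, both called, where the TMM scale gave -0.02 for rapamycin. COQ9 converges on YKE2 at a distance of 154 bases, in a row joined with another feature. That row stood at -0.01 in the deletion and 0.55 with rapamycin (limma adjusted p = 0.96 and 0.019). Its part in the YKE2 values was not tested.

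PFD1 (chrX:88787-89116, plus strand) had 23.3 and 29.3 scaled CPM in WT, 26.1 and 31.0 in bud27∆ and 21.3 and 18.7 with rapamycin. WT and deletion overlapped, and both rapamycin libraries lay below the rest. Neither step from WT passed the test, at 0.12 (SE 0.17, limma adjusted p = 0.60) and -0.37 (SE 0.17, limma adjusted p = 0.11), but the deletion lay above rapamycin by 0.49 (SE 0.17, limma adjusted p = 0.041). That last call was lost on the deposited scale (0.33, adjusted p = 0.16) and when any library but deletion replicate 1 was left out (adjusted p from 0.052 to 0.22). In deposited CPM the step from WT to the deletion was called, at 0.54 (adjusted p = 0.033). ATG27, which converges on PFD1 at a distance of 165 bases, stood at -1.30 in the deletion and -0.99 with rapamycin (limma adjusted p = 0.0011 and 0.0031). Its part in the PFD1 values was not tested.

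GIM3 (chrXIV:345669-346058, minus strand) had no row of its own. The table joins it with YCK2, a casein kinase gene that follows it on the same strand, and the reads of the pair cannot be separated here. The joined row held 133 and 112 scaled CPM in WT, 97.6 and 176 in bud27∆ and 92.5 and 95.1 with rapamycin. The deletion libraries lay on either side of WT, and no comparison was called. Leaving out deletion replicate 1 moved the value against WT from 0.10 to 0.56 (adjusted p = 0.016), and leaving out replicate 2 moved it to -0.32 (adjusted p = 0.082).

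**Figure D2:**
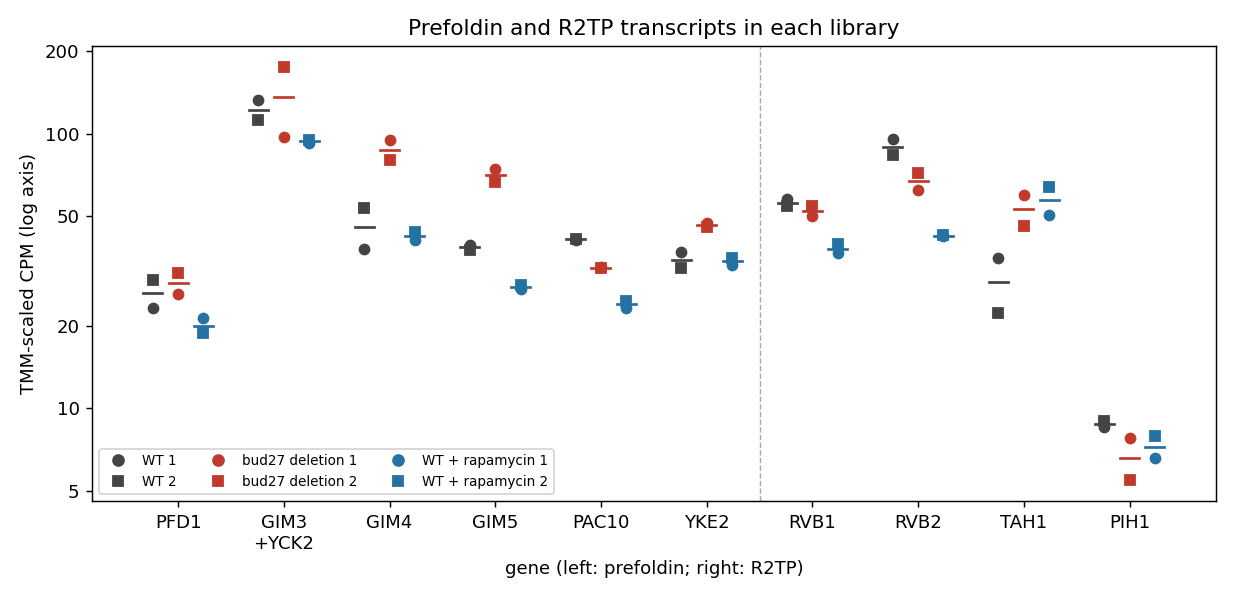
Scaled CPM (log axis) of the 10 members in each of the 6 libraries; circles are replicate 1, squares replicate 2 and lines the group means. The deletion stands above both other groups for GIM4, GIM5 and YKE2, rapamycin below both for PAC10, RVB1 and RVB2, and WT below both for TAH1.

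GIM4 and GIM5, the members that rose most in prefoldin, are also the only 2 of the 10 genes with an intron in the RefSeq annotation of build R64, each after a very short first exon (19 and 16 bases). Both introns are printed here 5′ to 3′ from that build, because no other member has one. Capitals mark the donor GTATGT, the branch point motif TACTAAC and the final AG where a script found them. The GIM4 intron lies at chrV:148195-148282 and the GIM5 intron at chrXIII:82291-82373, both on the plus strand.
GIM4 intron: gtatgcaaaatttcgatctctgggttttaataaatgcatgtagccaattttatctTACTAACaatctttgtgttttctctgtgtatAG
GIM5 intron: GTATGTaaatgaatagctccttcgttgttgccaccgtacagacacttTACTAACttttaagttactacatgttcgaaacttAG
The GIM5 intron starts with GTATGT, as do 72.95% of 281 nuclear introns, and the GIM4 intron does not. Both hold TACTAAC, as do 82.56% of the introns, and at 88 and 83 bases they are among the shorter ones (median 141 bases). Of 136 tested rows with an intron that are not ribosomal protein genes, 23.5% were higher and 22.1% lower in the deletion, beside 22.3% and 24.5% of 4732 such rows without an intron. This grouping was made after the members' values had been seen. The libraries read 3′ ends, so they say nothing about splicing.

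In R2TP the ATPase genes RVB1 and RVB2, whose proteins alternate in the ring and also serve the INO80 and SWR1 chromatin remodelling complexes, both fell with rapamycin, RVB2 by more. RVB2 (chrXVI:103232-104647, plus strand) had 95.7 and 83.8 scaled CPM in WT, 62.4 and 71.7 in bud27∆ and 42.3 and 42.6 with rapamycin. The groups did not overlap, and the rapamycin libraries were lowest. With rapamycin the log2 fold change was -1.06 (SE 0.14, limma adjusted p = 0.00058), and it was called in all 15 other settings, the deposited scale included (-0.46, adjusted p = 0.012). In the deletion it was -0.42 (SE 0.14, limma adjusted p = 0.038), a call that held in only 6 of the 15 other settings and vanished on the deposited scale (0.02). That deletion call was also lost without WT replicate 1, WT replicate 2, deletion replicate 1, rapamycin replicate 1 or rapamycin replicate 2 (adjusted p from 0.070 to 0.19). VMA11, a vacuolar ATPase subunit gene that converges on RVB2 at a distance of 298 bases, stood at -2.98 in the deletion and -1.60 with rapamycin (limma adjusted p = 0.00014 and 0.0019), and the strand setting of the counting is not given.

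RVB1 (chrIV:840604-841995, minus strand) had 57.7 and 54.6 scaled CPM in WT, 50.2 and 54.7 in bud27∆ and 36.7 and 39.5 with rapamycin. WT and deletion overlapped, at -0.10 (SE 0.13, limma adjusted p = 0.56, 95% interval -0.40 to 0.20). Rapamycin lay below both, at -0.55 against WT (SE 0.13, limma adjusted p = 0.010). With deposited CPM this value was 0.05, and it also lost its call without WT replicate 1, rapamycin replicate 1 or rapamycin replicate 2 (adjusted p from 0.062 to 0.13). SLY1, which converges on RVB1 at a distance of 211 bases, stood at -0.15 in the deletion and -0.58 with rapamycin (limma adjusted p = 0.71 and 0.15). Its part in the RVB1 values was not tested. The deletion lay above rapamycin by 0.45 for RVB1 (SE 0.13, limma adjusted p = 0.019) and by 0.64 for RVB2 (SE 0.14, limma adjusted p = 0.0051). On the deposited scale it did so by 0.29 (adjusted p = 0.0995) and 0.48 (adjusted p = 0.012). The RVB1 call was lost without rapamycin replicate 1 (adjusted p = 0.15) or rapamycin replicate 2 (adjusted p = 0.080).

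Because RVB1 and RVB2 moved the same way with rapamycin, the 200 bases that lie 250 to 51 bases before each start codon are printed here from RefSeq build R64, 5′ to 3′ on the gene's strand. They are chrIV:842046-842245 on the minus strand for RVB1 and chrXVI:102982-103181 on the plus strand for RVB2. Capitals mark CACGTG in both and, in RVB1, CCCCT (the stress element AGGGG on the other strand) and AAAATTTT.
RVB1 upstream: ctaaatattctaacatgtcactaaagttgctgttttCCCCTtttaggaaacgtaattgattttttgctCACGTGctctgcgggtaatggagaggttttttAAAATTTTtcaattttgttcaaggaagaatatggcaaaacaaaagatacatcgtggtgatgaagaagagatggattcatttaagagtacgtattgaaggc
RVB2 upstream: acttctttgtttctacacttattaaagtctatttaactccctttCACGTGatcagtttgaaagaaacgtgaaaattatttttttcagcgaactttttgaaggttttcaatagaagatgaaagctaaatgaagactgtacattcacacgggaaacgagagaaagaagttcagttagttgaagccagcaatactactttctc
The hexamer CACGTG, the core bound by the factor Cbf1, starts 182 bases before the RVB1 start codon and 206 bases before that of RVB2. It was searched after these windows had been read, and it occurs in 2.73% of the 6001 windows of 250 bases before a start codon and in none of the other 8 members. Of the 139 tested rows whose window holds it, 22.3% were lower with rapamycin, beside 21.0% of all 4870 rows of 1 gene. GATGAG, known as the PAC element of ribosome biogenesis genes and present in 17.0% of the windows on either strand, was found only in PFD1 among the members. The other motifs searched on both strands were AAAATTTT (8.65% of windows, RVB1 and YKE2), AGGGG (18.8%, RVB1 and GIM4), GAANNTTC of heat shock factor (9.93%, PFD1), TGACTC of Gcn4 (6.25%, GIM3), GATAAG (12.5%, no member) and GGTGGCAAA of Rpn4 (1.13%, no member).

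Of the adaptors, TAH1, whose small tetratricopeptide protein binds the tail of Hsp90, was higher in both the deletion and rapamycin. It lies at chrIII:224399-224734 on the plus strand. It had 35.2 and 22.2 scaled CPM in WT, 59.9 and 46.2 in bud27∆ and 50.5 and 63.9 with rapamycin. Both WT libraries lay below the other 4, which overlapped each other. The log2 fold change was 0.89 in the deletion (SE 0.24, limma adjusted p = 0.017) and 0.996 with rapamycin (SE 0.24, limma adjusted p = 0.010), 2 values that share the WT libraries. WT replicate 2 bears much of both: without it they were 0.57 (adjusted p = 0.13) and 0.68 (adjusted p = 0.082). The deletion call was also lost without deletion replicate 1 (0.74, adjusted p = 0.063). Both were larger in the deposited CPM, at 1.31 and 1.58.

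PIH1 (chrVIII:176965-177999, minus strand), the adaptor that bridges Tah1 and the ATPases, had few reads, with 131 to 226 reads in the WT and rapamycin libraries and 28 in each deletion library. Its scaled CPM were 8.53 and 8.97 in WT, 7.77 and 5.45 in bud27∆ and 6.58 and 7.92 with rapamycin. WT lay just above both other groups, which overlapped. The exact 95% counting intervals of the deletion libraries ran from 5.16 to 11.2 and from 3.62 to 7.88 scaled CPM, covering counting error only. These differences were not called, at -0.37 in the deletion (SE 0.20, limma adjusted p = 0.16, 95% interval -0.84 to 0.10) and -0.25 with rapamycin (SE 0.20, limma adjusted p = 0.36, 95% interval -0.72 to 0.22). Without deletion replicate 1 the deletion value was -0.56. YHR033W converges on PIH1 at a distance of 145 bases. It stood at 0.29 in the deletion and 0.46 with rapamycin (limma adjusted p = 0.14 and 0.038), and its part in the PIH1 values was not tested.

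Ratios of reads between partner subunits within a library do not depend on how libraries are scaled. The GIM5 to PAC10 ratio was 0.959 and 0.912 in WT, 2.28 and 2.06 in bud27∆ and 1.17 and 1.14 with rapamycin. The 3 groups did not overlap. The mean ratio was 2.17 ± 0.155 in the deletion (SD, n = 2; exact permutation p = 0.33, the smallest that 2 against 2 libraries can give). The RVB1 to RVB2 ratio was 0.603 and 0.651 in WT, 0.804 and 0.764 in bud27∆ and 0.869 and 0.927 with rapamycin. The groups did not overlap in this ratio either, and WT was lowest. The TAH1 to PIH1 ratio was 4.13 and 2.48 in WT, 7.71 and 8.46 in bud27∆ and 7.68 and 8.07 with rapamycin, so WT lay below the 2 other groups, which overlapped. Measured as shares of the reads of the 4 R2TP genes, TAH1 went from 13.1% and 17.9% in WT to 25.9% and 33.2% in bud27∆ and 37.1% and 41.5% with rapamycin, while RVB2 went from 48.5% and 49.4% to 34.6% and 40.3% and to 31.1% and 27.7%. The pairs of beta-type prefoldin subunits did not separate all 3 groups. The PFD1 to YKE2 ratio was 0.630 and 0.901 in WT, 0.550 and 0.679 in bud27∆ and 0.641 and 0.530 with rapamycin, with overlap in every comparison. For GIM4 to YKE2 it was 1.03 and 1.65 in WT, 2.01 and 1.76 in bud27∆ and 1.23 and 1.24 with rapamycin, so only the deletion stood apart. The pairs were chosen with these values in view, and how often other gene pairs separate was not computed.

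**Figure D3:**
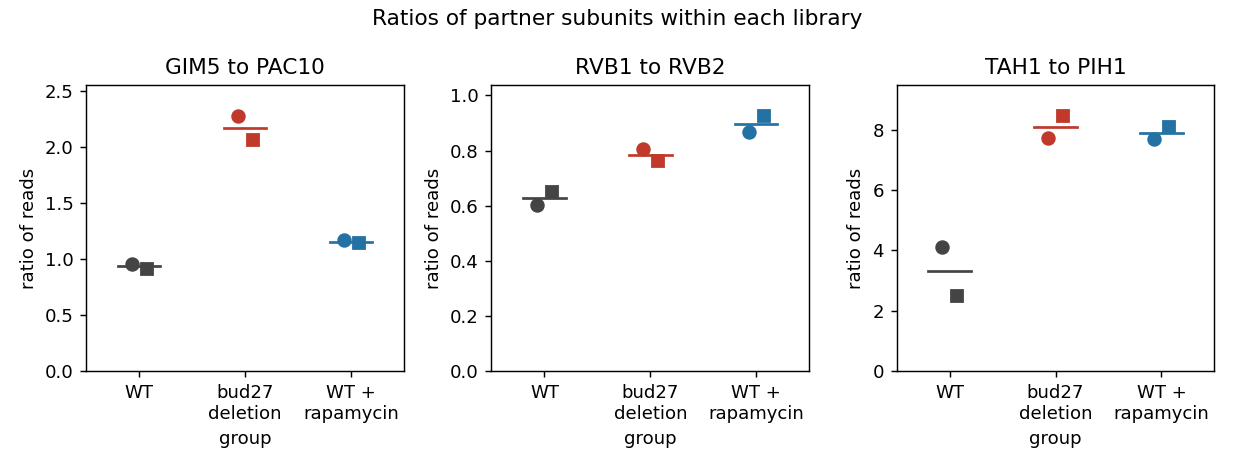
Ratio of reads of partner subunits in each library, by group, with axes from 0; circles are replicate 1, squares replicate 2 and lines the means. GIM5 to PAC10 is highest in the deletion (2.28 and 2.06), RVB1 to RVB2 rises from WT to rapamycin, and TAH1 to PIH1 is lowest in WT (4.13 and 2.48).

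Genes that work with these complexes were counted from lists of known partners. The counts in this and the following paragraphs stand beside those of all gene rows. Of these, 21.7% were higher and 25.5% lower in the deletion, and 24.4% were higher and 21.5% lower with rapamycin. Of the 8 CCT chaperonin genes, which receive the clients of prefoldin, 4 were lower and none higher in the deletion (median log2 fold change -0.34) and 6 were lower and none higher with rapamycin (median -1.01). By the deposited CPM the deletion counts were 2 lower and 1 higher (CCT2 at 0.65), with a median of 0.09, and those with rapamycin 5 lower and none higher. CCT5 stood at -1.08 in the deletion (SE 0.13), CCT6 at -1.40 with rapamycin (SE 0.25) and CCT7 at -1.33 with rapamycin (SE 0.12).

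Beside 25.5% of all rows, 2 of 5 substrate genes fell in the deletion. These were the tubulin genes TUB2, with 242 and 242 scaled CPM in WT and 106 and 98.4 in the deletion (-1.23, SE 0.12, limma adjusted p = 0.00023), and TUB1 (-1.01, SE 0.16, limma adjusted p = 0.0018), and both calls were kept on the deposited scale. With rapamycin only TUB2 was called, at -0.37 (SE 0.12, limma adjusted p = 0.040), and its sign turned on the deposited scale (0.23), where no substrate was lower and 2 were higher, ACT1 at 0.84 (adjusted p = 0.023) and TUB4 at 0.53 (adjusted p = 0.020). Reads of TUB1 and its near-identical copy TUB3 can be split, so both are uncertain. Of the 6 tubulin folding cofactors 2 rose and none fell in the deletion (CIN2 at 1.70, SE 0.24), and 1 rose with rapamycin, beside 21.7% and 24.4% of all rows. In deposited CPM 3 were higher and none lower in each comparison.

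Transcripts of proteins that R2TP helps to assemble were counted too, while no protein was measured. Of the 4 box C/D protein genes all fell with rapamycin (median -1.497, and all 4 also on the deposited scale), where 21.5% of all rows fell. SNU13 stood at -1.91 (SE 0.14) and NOP1 at -1.51 (SE 0.17). In the deletion 2 fell, NOP1 at -1.05 (SE 0.17) and SNU13 at -0.97 (SE 0.14), and 1 rose, NOP56 at 0.74 (SE 0.14). The directions of these 3 genes were the same on the deposited scale. Of the 3 assembly factors of this family 2 fell in the deletion and 1 with rapamycin. In deposited CPM 1 was lower (RSA1) and 1 higher (BCD1 at 0.90, adjusted p = 0.047) in the deletion, and none was called with rapamycin. NOP58 shares a row with another feature and is uncertain.

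Of the genes of 11 listed INO80 subunits, which do not include Rvb1, Rvb2, Act1 and Arp4, 4 rose in the deletion and 3 with rapamycin. None fell, where 21.7% and 24.4% of all rows rose, so that the share with rapamycin lay near the background. IES6 stood at 0.87 and 0.94 (SE 0.14 for both). RVB2 was lower in both comparisons on the TMM scale, and in the deposited CPM only with rapamycin (0.02 in the deletion). Of the 9 listed SWR1 genes tested 1 rose in each comparison and none fell. The genes of Hsp90 and its co-chaperones had 2 higher and 3 lower of 11 in the deletion and 2 higher and 1 lower with rapamycin. Of all rows 21.7% were higher and 25.5% lower in the deletion, so the Hsp90 counts there lay near the background. HSC82 stood at -1.56 and -0.71 (SE 0.18 for both). HSC82 and HSP82 are near-identical copies and so uncertain. The TTT and ASTRA list had no call among 5 genes in either comparison. The kinases of the TOR family had none of 4 in the deletion and 1 higher with rapamycin. The 7 RNA polymerase assembly factors had 1 higher in the deletion and 1 lower with rapamycin. None of these shares stood clearly above that of all rows in the same direction. With deposited CPM, higher calls outnumbered lower ones in the lists of this paragraph, in both comparisons, with 8 and 7 of 11 for INO80.

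**Figure D4:**
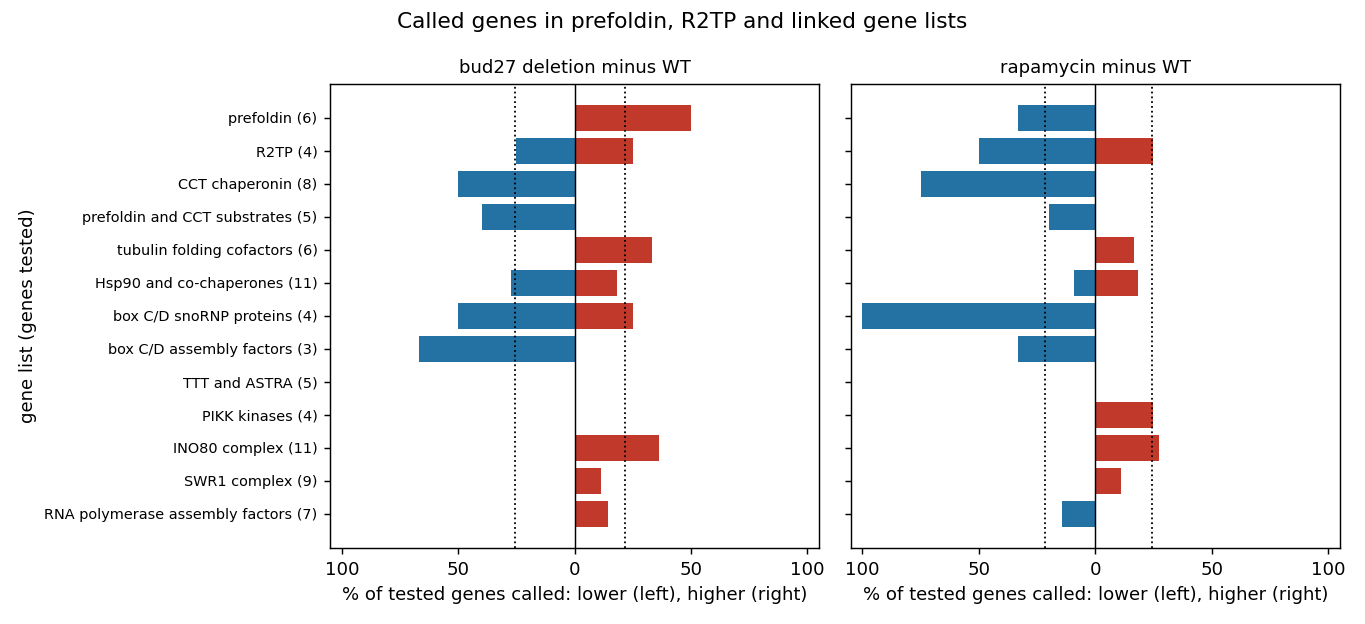
Percent of the tested genes of each list called lower (blue, left) or higher (red, right) on the TMM scale in the deletion and with rapamycin; dotted lines are the shares of all gene rows called in each direction. In the deletion 3 of 6 prefoldin and 4 of 11 INO80 genes were called higher (8 of 11 INO80 genes in deposited CPM), and the box C/D protein genes were all called lower with rapamycin.

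The genes whose levels ran most like the mean profile of the 5 prefoldin genes with their own row, among 2954 rows of 1 gene with a mean of at least 20 CPM, were BUD14, SMM1 and PAM16. Pearson's r over the 6 libraries was 0.995 for BUD14, 0.994 for SMM1 and 0.994 for PAM16. BUD14 had 26.9 and 28.3 scaled CPM in WT, 43.6 and 40.9 in bud27∆ and 20.7 and 20.3 with rapamycin. For R2TP the closest were SEC65 (r = 0.97), SPE2 (r = 0.947) and MIP1 (r = 0.939). These are descriptions over 6 points that share library depth and scaling. The summed scaled CPM of the 5 prefoldin genes were 179 and 195 in WT, 276 and 256 in bud27∆ and 146 and 151 with rapamycin, and those of the 4 R2TP genes 197 and 170, 180 and 178, and 136 and 154.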

How the data were processed

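The members and gene lists were chosen with earlier results of these data known. Per the labels' protocols, QuantSeq 3′ libraries were sequenced on Illumina HiSeq instruments. FastQC, HISAT2, DESeq, DESeq2 and build R64 are named in the submitters' processing notes. No source used here gives the counting tool, its annotation, strand setting or rule for multi-mapping reads. Values deposited by the authors are CPM for 7247 rows and 6 libraries. In each library 100% of the values were whole multiples of 1 read (tolerance 0.01 reads), so reads were recovered. After leaving out 925 CUT and 847 SUT rows (unstable and unannotated transcripts), edgeR's filter (minimum count 10 by group) kept 5279 of 5475 gene rows, all 10 members' rows among them. The log2 of CPM divided by TMM factors (edgeR 4.0.16), plus 1, went into limma 3.58.1 in R 4.3.3, using its trend option, all 3 groups together (3 residual degrees of freedom), and p-values were adjusted by Benjamini and Hochberg. TMM factors were lowest in WT (0.767 and 0.805), higher in the deletion (1.12 and 1.01) and highest after rapamycin (1.19 and 1.20). No spike-in sets the absolute level. The count tests of edgeR and DESeq2 1.42.0 on the recovered reads were alternatives and called 2456 and 2361 rows in the deletion, 2657 and 2501 with rapamycin. The code was tested on simulated data. Named genes were all members, BUD27, FRS2, up to 2 called genes per list with a mean of at least 20 CPM, and the 3 rows most like each complex. GIM3 was left out of complex sums and profiles because its row is joined. Replicates of each group differed by more than sampling noise.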

Additional observations from a re-analysis of the deposited data

How the results depend on the processing

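The deposited CPM scale raised the median of all rows from -0.02 to 0.38 in the deletion and from 0.05 to 0.60 with rapamycin, and the share of calls that were higher from 46.0% to 76.1% and from 53.1% to 87.0% (46.6% to 33.9% for deletion against rapamycin). It left 3 members called with rapamycin and 3 in deletion against rapamycin. Signs turned there for PAC10 (0.094), RVB1 (0.33), RVB2 (0.017) and PIH1 (0.014) in the deletion, and for PFD1 (0.21), GIM3 (0.22), GIM4 (0.50), GIM5 (0.12), YKE2 (0.57), RVB1 (0.047) and PIH1 (0.29) with rapamycin. Without the filter YKE2 stood at 0.0061 with rapamycin. Members called in the deletion numbered 3 with only the 2 groups compared. With the replicate block they also numbered 3, YKE2 and RVB2 losing their calls (adjusted p = 0.054 and 0.057), and no other member's call changed. The deviations of libraries with the same number correlated at -0.05, -0.10 and 0.04. Whether such libraries shared a culture day, preparation or run is not given, and these values cannot show it. Leaving out 1 library at a time gave 2 to 5 members called in the deletion, 3 to 6 with rapamycin and 3 to 8 in deletion against rapamycin. All rows called then ranged from 1434 to 3031, 1588 to 3058 and 2044 to 3261. Members not called in a comparison then crossed 0: in the deletion PFD1 (-0.045 to 0.28), GIM3 (-0.32 to 0.56) and RVB1 (-0.16 to 0.0025), with rapamycin GIM4 (-0.33 to 0.15) and YKE2 (-0.10 to 0.072), and in deletion against rapamycin TAH1 (-0.28 to 0.073) and PIH1 (-0.33 to 0.090). The cause was not tested. The counts of members moved by over 1.5 times without WT replicate 1, WT replicate 2 or either rapamycin library. Median-of-ratios scaling, pseudocounts of 0.25 and 5 and edgeR on recovered reads changed no member's direction or call. Of all repeats of a member's value, 376 kept direction and call and 25 turned sign, some of these with a change of call. Among those that kept direction, 42 lost a call and 7 gained one. The depth of the deletion libraries limits PIH1 most.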
